A study of Sus scrofa with 12 samples.

Results

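FTO and ALKBH5 are the enzymes known to take m6A off mRNA, and their transcripts were read in pig intestinal epithelial cells by the m6A peaks they carry and by their deposited expression values. The members were taken by gene symbol from a table of merged m6A peaks and by the same gene identifiers from an expression table. They comprised 2 of 20889 genes and 4 of 25055 distinct merged peaks, with 2 peaks on FTO and 2 on ALKBH5, none of which was listed under a second gene.

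All groups were of IPEC-J2, a wild-type line of epithelial cells from the small intestine of the pig. The OAA group received 25 µM of the compound labelled OAA for 24 h and the CON group 0 µM for 24 h. The series title names 2-oxindole-3-acetic acid, an oxidation product of indole-3-acetic acid. Each treatment had 3 numbered replicates with a library labelled input and a library labelled IP each, which made 12 libraries in 4 groups. A single line was treated at a single dose and time. The labels do not say whether replicates were separate cultures, so p-values reflect the spread among these libraries alone, and that spread may be technical.

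N6-methyladenosine (m6A) is placed on nascent mRNA by a methyltransferase complex around METTL3 and METTL14, is bound by reader proteins such as YTHDF2, and can be removed by FTO and ALKBH5. Both demethylases are iron-dependent dioxygenases of the AlkB family that use 2-oxoglutarate and oxygen. FTO also acts on the methylated adenosine beside the mRNA cap (m6Am) and is known for its human association with body mass and for its part in fat cell formation. ALKBH5 is mostly nuclear and is known for effects on mRNA export and stability.

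MeRIP-seq sequences RNA fragments pulled down with an antibody to m6A and, in parallel, fragments that were not selected. Here the titles and the peak reads pointed different ways: 97.3% of 24931 peaks with a count in OAA cells and 98.3% in CON cells held more reads, unscaled, in the libraries labelled input, although an antibody library is the one expected to hold more reads in peaks. Depths outside peaks were not used here. Each library keeps the name its label gives. What is called the peak ratio here divides labelled input by labelled IP on the log2 scale, which is how the log2 ratios deposited by the authors run. It measures antibody enrichment if the titles are exchanged, and its opposite if they are correct. Mega-reads (M) in peaks came to 19.0 to 21.5 M per OAA and 16.5 to 23.0 M per CON library labelled input, and to 4.36 to 4.61 M per OAA and 3.71 to 4.46 M per CON library labelled IP. In the FPKM table, 7 of 8 epithelial markers reached a mean of 1 FPKM, led by the keratin KRT8 at 396 FPKM, while the brush-border protein VIL1 stood at 0.246 FPKM. The leukocyte marker PTPRC and the goblet mucin MUC2 were listed at 0 in all 6 libraries. However, the other goblet marker, FCGBP, averaged 2.98 FPKM, and the leukocyte markers CD14 and CD3E averaged 0.682 and 0.474 FPKM. All 3 endothelial markers reached 1 FPKM, with CDH5 at 3.78. The summed endothelial level was 6.19 to 6.90 FPKM in OAA and 5.52 to 6.73 in CON libraries, and its part in the results below was not tested.

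No difference in the deposited FPKM of FTO or ALKBH5 between OAA and CON cells passed the test. FPKM is a read density corrected for transcript length and sequencing depth, and its columns bear the same codes as the libraries labelled IP. If the titles are exchanged, these values measure unselected mRNA, and if they are correct, RNA pulled down by the antibody, so every FPKM below is given as deposited and not as an mRNA level. In bulk RNA, fewer cells that express a gene and less of its RNA per cell cannot be told apart. FTO (ENSSSCG00000035949) had 9.29, 10.1 and 9.62 FPKM in the OAA libraries, against 8.47, 9.07 and 9.21 FPKM in the CON libraries. Every OAA library lay above every CON library, by a narrow margin. ALKBH5 (ENSSSCG00000035120) had 26.4, 27.0 and 25.7 FPKM in the OAA libraries, against 24.5, 25.1 and 27.9 FPKM in the CON libraries. Here the highest and the lowest values both belonged to CON, and the groups overlapped.

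**Figure D1:**
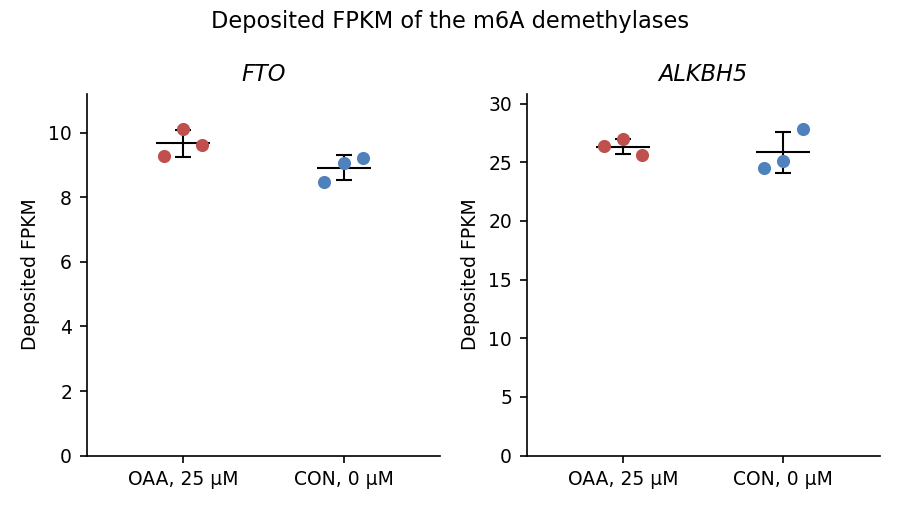
Deposited FPKM of FTO and ALKBH5 in the 3 OAA and 3 CON libraries (points), with the mean (long bar) and SD (whiskers), on linear axes from 0. The OAA points of FTO all lie above the CON points, and those of ALKBH5 lie within the CON range of 24.5 to 27.9 FPKM.

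FTO averaged 9.67 ± 0.414 FPKM in OAA cells and 8.91 ± 0.394 FPKM in CON cells (SD, n = 3 each), a log2(FPKM + 1) difference of 0.11 ± 0.07 (SE). This did not pass limma's test (95% interval -0.05 to 0.26, unadjusted p = 0.151, adjusted p = 1.00). ALKBH5 averaged 26.3 ± 0.648 FPKM in OAA cells and 25.8 ± 1.78 FPKM in CON cells (SD, n = 3 each), a difference of 0.03 ± 0.06 (SE, 95% interval -0.11 to 0.17, unadjusted p = 0.671, adjusted p = 1.00 by limma). Of 10763 genes tested, limma called 0 (0%) at an adjusted p under 0.05, and 356 (3.31%) had an unadjusted p under 0.05. Genes with every OAA library above every CON library, as in FTO, made up 3.28% of those tested. An exact two-sided permutation test of FTO over the 3 and 3 libraries gave p = 0.1, the smallest that this design allows.

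On the FPKM scale, which corrects for transcript length, ALKBH5 had the higher value of the pair in every library with FPKM. The ratio of ALKBH5 to FTO FPKM was 2.84, 2.67 and 2.67 in the OAA libraries, against 2.89, 2.77 and 3.03 in the CON libraries. The ranges overlapped, and an exact permutation test of the ratio between treatments gave p = 0.2 (n = 3 each). Among the 9 AlkB-family genes measured, ALKBH5 ranked first at a mean of 26.1 FPKM, followed by ALKBH8, a tRNA modification enzyme, at 13.6 FPKM. ALKBH6 at 9.69 FPKM and FTO at 9.29 FPKM came next, and their ranges over the 6 libraries overlapped. ALKBH4 at 5.74 FPKM and ALKBH3, an enzyme that repairs alkylated bases, at 4.89 FPKM also overlapped each other, and ALKBH2 was lowest at 1.08 FPKM. The range of ALKBH5 did not meet that of ALKBH8.

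The peaks of FTO lay within its coding sequence alone, and no merged peak was listed at its start codon, stop codon or untranslated regions. The genome build is not given in the sources used here, so coordinates are those of the files, counted from 1. FTO lies on the minus strand of chromosome 6 from 31174569 to 31564687, a span of 390.1 kb. Its wide peak (31427720 to 31445131) spans 17412 bp, against a median of 300 bp over all peaks, and is annotated as coding sequence. A peak of that width on the genome spans introns wherever these separate its exons, and exon positions were not used here. Its narrow peak (31458780 to 31459400, 621 bp), also annotated as coding sequence, lies closer to the gene's 5′ end.

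Nearly all peak reads of FTO fell in the wide peak. It held 763, 763 and 558 reads in the OAA libraries labelled input, against 856, 648 and 917 reads in the CON libraries labelled input. Of the libraries labelled IP, it held 129, 140 and 133 reads in OAA, against 94, 120 and 106 reads in CON. The narrow peak held 22, 35 and 7 reads in the OAA libraries labelled input and 16, 11 and 16 in the CON libraries labelled input. Its reads came to 6 over the OAA and 4 over the CON libraries labelled IP, which is too few for a value per library.

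Scaled to library size (CPM, reads in a peak relative to all peak reads of its library, with TMM factors), the wide FTO peak was lower with OAA in one kind of library and higher in the other, but neither difference passed the test. In the libraries labelled input it had 35.8, 37.7 and 28.9 CPM in OAA, against 39.0, 39.3 and 40.0 CPM in CON. Every OAA library lay below every CON library, and the CON values were close to each other. Among those labelled IP it had 28.2, 31.3 and 30.8 CPM in OAA, against 23.4, 26.8 and 28.6 CPM in CON. Here the lowest OAA library lay just below the highest CON library, so the groups overlapped.

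**Figure D2:**
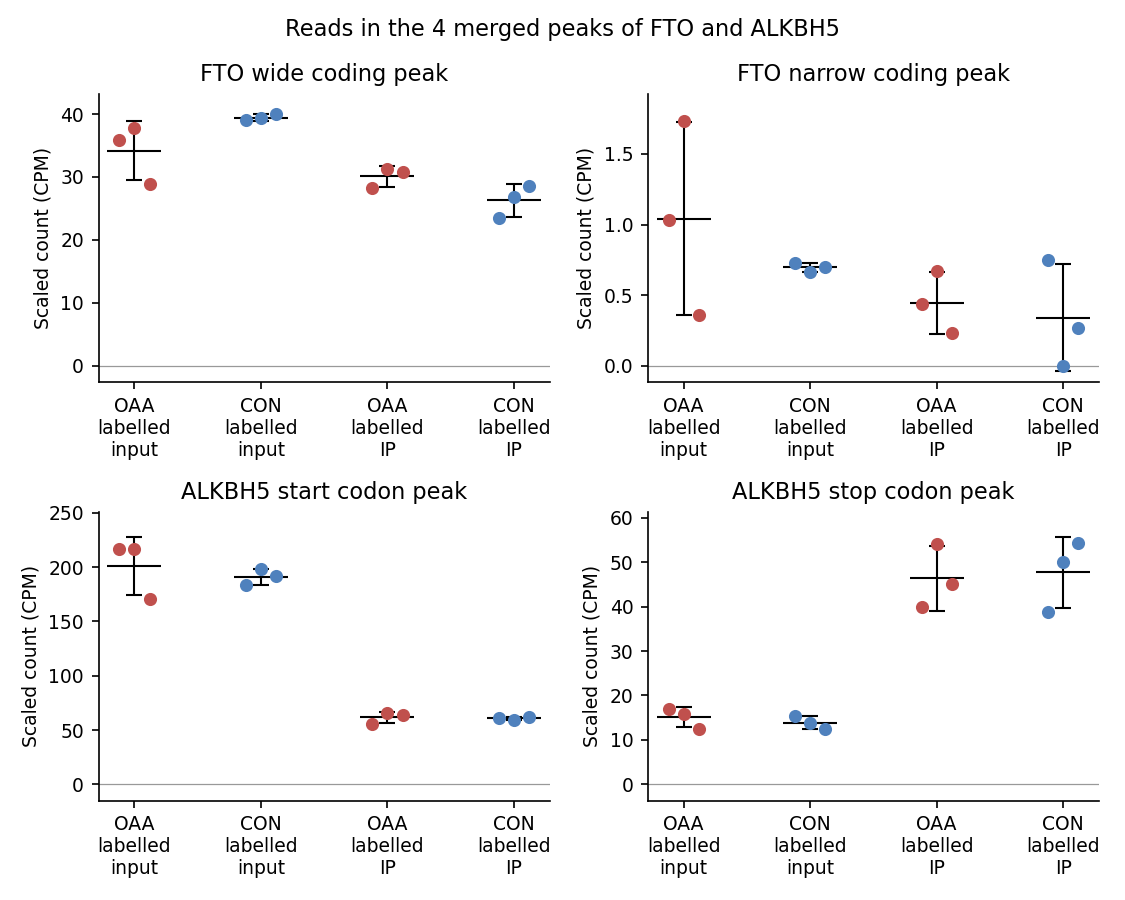
Scaled counts (CPM, linear axes) of the 4 peaks in each library (points), with the mean (long bar) and SD (whiskers) of each group of 3. The wide FTO peak lies at 28.9 to 37.7 CPM in OAA and 39.0 to 40.0 CPM in CON libraries labelled input, and libraries labelled input lie above those labelled IP for the ALKBH5 start codon peak and below them for its stop codon peak.

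EdgeR's quasi-likelihood test gave the wide FTO peak a log2 difference, OAA over CON, of -0.21 ± 0.11 in the libraries labelled input (SE, 95% interval -0.44 to 0.03, unadjusted p = 0.0794, adjusted p = 0.940). For those labelled IP the edgeR difference was 0.20 ± 0.15 (SE, 95% interval -0.12 to 0.51, adjusted p = 0.998). Of 24835 peaks tested in the libraries labelled input, edgeR called 0 (0%) at an adjusted p under 0.05, with 1292 (5.2%) at an unadjusted p under 0.05, and DESeq2 called 2. Of the same peaks, 5.52% had every OAA library below every CON library. Of 20098 peaks in the libraries labelled IP, 1 (0.00498%) was called, and 779 (3.88%) had an unadjusted p under 0.05. The called peak belongs to a gene listed under the symbol env and was identified after its value was seen. All 4 member peaks had their lowest OAA value among the libraries labelled input in replicate 3. Without that library the wide FTO peak differed by -0.10 (unadjusted p = 0.341 by edgeR). Lying below the CON mean in every OAA library labelled input and above it in every OAA library labelled IP, as the wide FTO peak did, held for 2.73% of 24145 peaks.

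The peak ratio of wide FTO was above that of the typical peak in both treatments. For these ratios all 12 libraries were scaled together. Setting libraries of the same number against each other, the log2 ratios were 0.63, 0.55 and 0.20 in OAA, against 1.03, 0.86 and 0.79 in CON. The OAA values all lay below the CON values, as they did in 5.37% of peaks. In edgeR's fit, where the scaling puts the typical peak near 0, the ratio was 0.47 ± 0.13 in OAA (SE, adjusted p = 0.00224) and 0.89 ± 0.13 in CON (SE, adjusted p = 8.00e-07). Both were called higher, which held for 34.1% of 24145 peaks in OAA and 33.9% in CON. With library size alone as scaling, the median of all peaks shifted to -0.24 in OAA and -0.28 in CON, and the FTO ratio became 0.19 in OAA (adjusted p = 0.188 by edgeR) and 0.59 in CON (adjusted p = 0.000297). That scaling left 6729 peaks called higher and 9892 lower in OAA, against 8237 and 8295 with TMM. In CON it left 6516 and 10068, against 8181 and 8250 with TMM.

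The ratio of wide FTO did not stand out among coding-sequence peaks. It was at the 63.8th percentile of 5350 such peaks in OAA and at the 74.3rd in CON, where the class medians were -0.03 and -0.04. With the ratio turned to labelled IP over labelled input, these ranks were the 36.2nd and the 25.7th percentile. The change of the ratio, OAA minus CON, was -0.42 ± 0.19 on the log2 scale (SE, 95% interval -0.81 to -0.03), with an unadjusted p of 0.0339 and an adjusted p of 0.999 by edgeR. It therefore did not pass. EdgeR called 0 of 24145 peaks (0%) for a change of the ratio, and 1076 (4.46%) had an unadjusted p under 0.05, while DESeq2 called 1. In the authors' deposited table the same difference was -0.34 with a p-value of 0.225 and an adjusted p-value of 1.00. Leaving out 1 library at a time moved the change between -0.50 and -0.30. The value nearest 0 was found without OAA labelled input replicate 3, where the unadjusted p was 0.109 by edgeR.

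For the narrow FTO peak only pooled counts could be set against each other. It had 64 reads in OAA and 43 in CON libraries labelled input, against 6 and 4 reads in the OAA and CON libraries labelled IP. This ratio of labelled input over labelled IP is given as a plain fold, not on the log2 scale used for the other peaks. Scaled to library size with TMM factors, it was 2.86-fold in OAA (exact 95% interval 1.24 to 8.08) and 2.64-fold in CON (0.958 to 10.1). The CON interval thus includes equal levels in both kinds of library. The intervals cover counting error only and overlap almost wholly. The narrow peak was too low to be kept for the test of ratios by edgeR's filter, and in the libraries labelled input it differed by 0.58 ± 0.59 (log2, OAA over CON, SE, adjusted p = 0.949 by edgeR). That value was 0.0081 without OAA labelled input replicate 2, 0.97 without OAA labelled input replicate 3 and 0.38 with the replicate block.

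ALKBH5 carried its peaks at the ends of its coding sequence, and their ratios lay on opposite sides of the typical peak. It lies on the minus strand of chromosome 12 from 60507662 to 60529534, a span of 21.9 kb. The start codon peak (60528944 to 60529534, 591 bp) is annotated as coding sequence and start codon and ends exactly at the annotated 5′ end of the gene, and no 5′ UTR is listed for it. The stop codon peak (60509012 to 60509186, 175 bp) covers coding sequence, stop codon and 3′ UTR, 1350 bp from the gene's 3′ end.

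The start codon peak was much the larger in reads among the libraries labelled input. It held 4606, 4391 and 3295 reads in the OAA libraries labelled input, against 4030, 3264 and 4404 in the CON libraries labelled input. Those labelled IP held 256, 294 and 274 of its reads in OAA, against 245, 265 and 231 in CON. More modest counts were found at the other end of the gene. The stop codon peak held 360, 319 and 242 reads in the OAA libraries labelled input, against 336, 228 and 285 in the CON libraries labelled input. Among those labelled IP it held 182, 242 and 195 reads in OAA, against 156, 224 and 201 in CON. After scaling, the start codon peak averaged 201 ± 26.7 CPM in OAA and 191 ± 7.37 CPM in CON libraries labelled input, and 61.7 ± 5.09 CPM in OAA and 60.9 ± 1.58 CPM in CON libraries labelled IP (SD, n = 3 each). For the stop codon peak these means were 15.1 ± 2.28 and 13.9 ± 1.44 CPM in the libraries labelled input (OAA, then CON) and 46.3 ± 7.23 and 47.7 ± 7.93 CPM in those labelled IP (OAA, then CON). The treatments overlapped in all 4 of these sets.

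The start codon peak took most ALKBH5 peak reads in one kind of library and little more than the stop codon peak in the other. Of the reads in both ALKBH5 peaks its share was 92.8%, 93.2% and 93.2% in the OAA libraries labelled input, where the Wilson 95% intervals ran from 92.0% to 93.9%. In the OAA libraries labelled IP it was 58.4%, 54.9% and 58.4%, with intervals from 50.6% to 63.0%. The CON mean was 93.2 ± 0.835% for labelled input libraries and 56.3 ± 4.21% for labelled IP libraries (SD, n = 3 each). The log2 of start codon over stop codon reads was higher by 3.37 in the libraries labelled input, and each of those 6 libraries lay above each of the 6 labelled IP. An exact two-sided permutation test that exchanged labels within each treatment gave p = 0.005, the smallest that its 400 arrangements allow. It did not keep the pairs of libraries that the protocol makes from each RNA. Exchange within pairs would allow fewer arrangements, so this p may overstate the evidence. How many other genes separate in this way was not counted. Of all peaks, 34.1% were called higher and 34.4% lower in peak ratio in OAA, and 33.9% and 34.2% in CON. Between OAA and CON the same log2 value differed by -0.05 (labelled input) and by 0.06 (labelled IP) (exact permutation p = 0.8 for both, n = 3).

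The peak ratio of the ALKBH5 start codon peak was 2.23, 2.01 and 1.72 in OAA, against 1.89, 2.05 and 1.93 in CON, by replicate number. That of the stop codon peak was -0.95, -1.50 and -1.55 in OAA, against -1.05, -1.55 and -1.82 in CON. The first was positive and the second negative in all 6 pairs, and in each the OAA and CON values overlapped. In edgeR's fit the start codon peak stood at 1.99 ± 0.10 in OAA (SE, adjusted p = 7.90e-18) and 1.96 ± 0.10 in CON (SE, adjusted p = 1.70e-17). Each was called higher, as were 34.1% of all peaks in OAA and 33.9% in CON. The stop codon peak stood at -1.33 ± 0.15 in OAA (SE, adjusted p = 5.05e-09) and -1.48 ± 0.16 in CON (SE, adjusted p = 7.33e-10). Each was called lower, as were 34.4% of all peaks in OAA and 34.2% in CON. These signs are relative to the typical peak, because the scaling equalises peak reads over libraries. In the authors' deposited table, whose scaling is not stated, the log2 ratio was positive for all 4 member peaks: 5.96 in OAA and 5.85 in CON for the ALKBH5 start codon peak, 2.64 and 2.39 for its stop codon peak, 4.44 and 4.78 for wide FTO and 5.50 and 5.26 for narrow FTO.

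**Figure D3:**
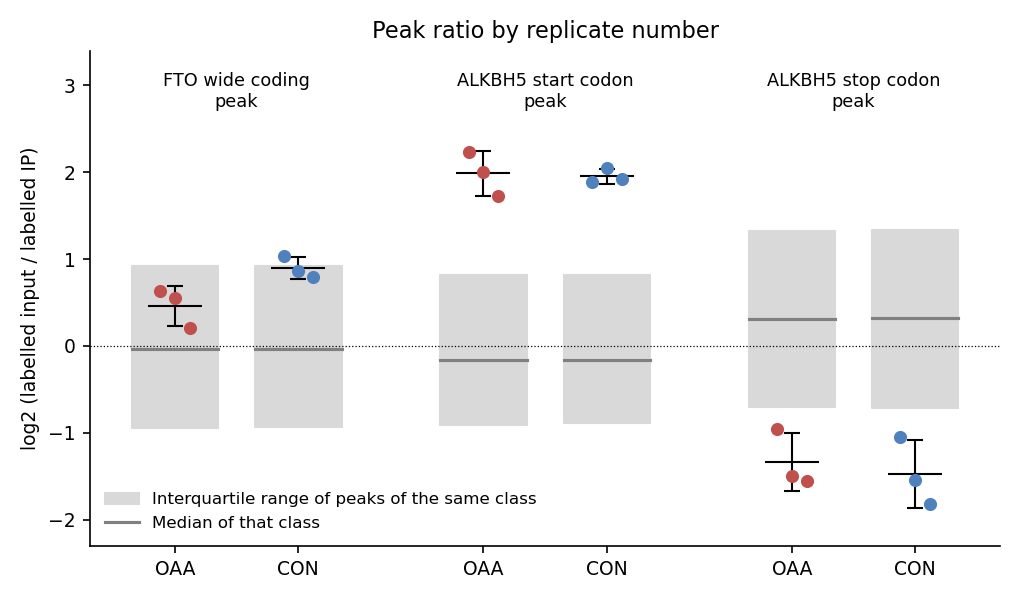
Log2 ratio of labelled input over labelled IP by replicate number (points) with mean (long bar) and SD (whiskers) for 3 member peaks. Grey boxes span the interquartile range of peaks of the same annotation class, with a line at the class median. The ALKBH5 start codon peak lies above its box, the stop codon peak below its box and the wide FTO peak within its box in OAA.

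Both ALKBH5 peaks lay toward opposite ends of the range of their annotation class. The start codon peak lay at the 92.1st percentile of 4444 start codon peaks in OAA and at the 92.3rd in CON, where the class medians were both -0.16. Turned to labelled IP over labelled input, it lay at the 7.88th percentile in OAA and at the 7.70th in CON. That of the stop codon lay at the 11.4th percentile of 5171 stop codon peaks in OAA and at the 8.68th in CON, against class medians of 0.32 and 0.33, and, turned in the same way, at the 88.5th and the 91.3rd. In 1706 genes with a single start codon peak and a single stop codon peak of their own, the start codon ratio minus the stop codon ratio had a median of 0.01 in OAA and -0.05 in CON. For ALKBH5 this difference was 3.33 in OAA and 3.44 in CON, a 10.0-fold and a 10.8-fold higher ratio at the start codon. It was exceeded by 36 of these genes in OAA and by 32 in CON. With the ratio turned, the difference was -3.33 in OAA and -3.44 in CON, at the 2.11th and the 1.88th percentile of these genes, so the enriched end of ALKBH5 depends on which titles are right. Because it is a difference within a gene, the scaling of libraries cancels in it.

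**Figure D4:**
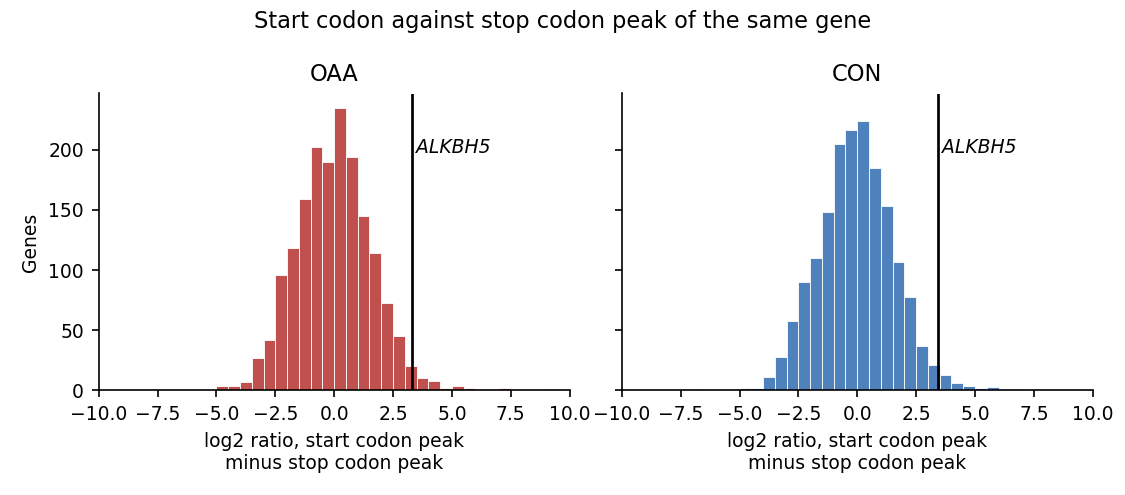
Number of genes (y axis) by the log2 ratio of the start codon peak minus that of the stop codon peak (x axis, bins of 0.5) for 1706 genes, in OAA (left) and CON (right). The vertical line marks ALKBH5, at 3.33 in OAA and 3.44 in CON, in the right tail of both distributions. The ratio is labelled input over labelled IP, and turning it would mirror both plots.

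No change of the ALKBH5 peaks with OAA was detected. The change of the ratio, OAA minus CON, was 0.04 ± 0.14 for the start codon peak (log2, SE, 95% interval -0.24 to 0.32, adjusted p = 0.999 by edgeR). It was 0.15 ± 0.22 for the stop codon peak (SE, 95% interval -0.30 to 0.59, adjusted p = 0.999 by edgeR), and between 0.048 (without CON labelled IP replicate 3) and 0.28 (without OAA labelled IP replicate 2) with 1 library left out. The authors' deposited table gave differences of 0.11 and 0.24, with p-values of 0.665 and 0.437. Within the libraries labelled input the start and stop codon peaks differed between OAA and CON by 0.07 ± 0.08 and 0.12 ± 0.16, and within those labelled IP by 0.02 ± 0.11 and -0.04 ± 0.14 (log2, SE, adjusted p between 0.952 and 0.998 by edgeR). The 95% intervals of these 4 differences reached at most 0.46 above 0. Without OAA labelled input replicate 3 the start codon peak differed by 0.18 in the libraries labelled input (unadjusted p = 0.00952, adjusted p = 0.672 by edgeR). The stop codon peak there differed by 0.24 without the same library and by 0.031 without OAA labelled input replicate 1.

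The relatives of both enzymes in the AlkB family showed no called difference either. Of 7 relatives tested in the FPKM values, 0 were called, 5 lay above 0 and 2 below, with a median of 0.05 against -0.01 over all genes. ALKBH4, which acts on a methylated lysine of actin, had the smallest p: it averaged 5.20 ± 0.645 FPKM in OAA cells and 6.28 ± 0.504 in CON cells (SD, n = 3 each; log2 -0.23, unadjusted p = 0.0339, adjusted p = 1.00 by limma). The mitochondrial ALKBH7 stood at 2.08 ± 0.0359 FPKM in OAA cells and 1.75 ± 0.129 in CON cells (SD, n = 3 each; log2 0.17). ALKBH6 differed by 0.13 and ALKBH3 by -0.14. In peak ratios, 5 of 12 peaks on the relatives were called higher and 2 lower in OAA, and 5 and 1 in CON, beside 34.1% and 34.4% of all peaks in OAA and 33.9% and 34.2% in CON. In ALKBH4 the stop codon peak had a ratio of 1.98 in OAA and 1.73 in CON, and that of ALKBH3 had -1.57 in OAA and -1.84 in CON.

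**Figure D5:**
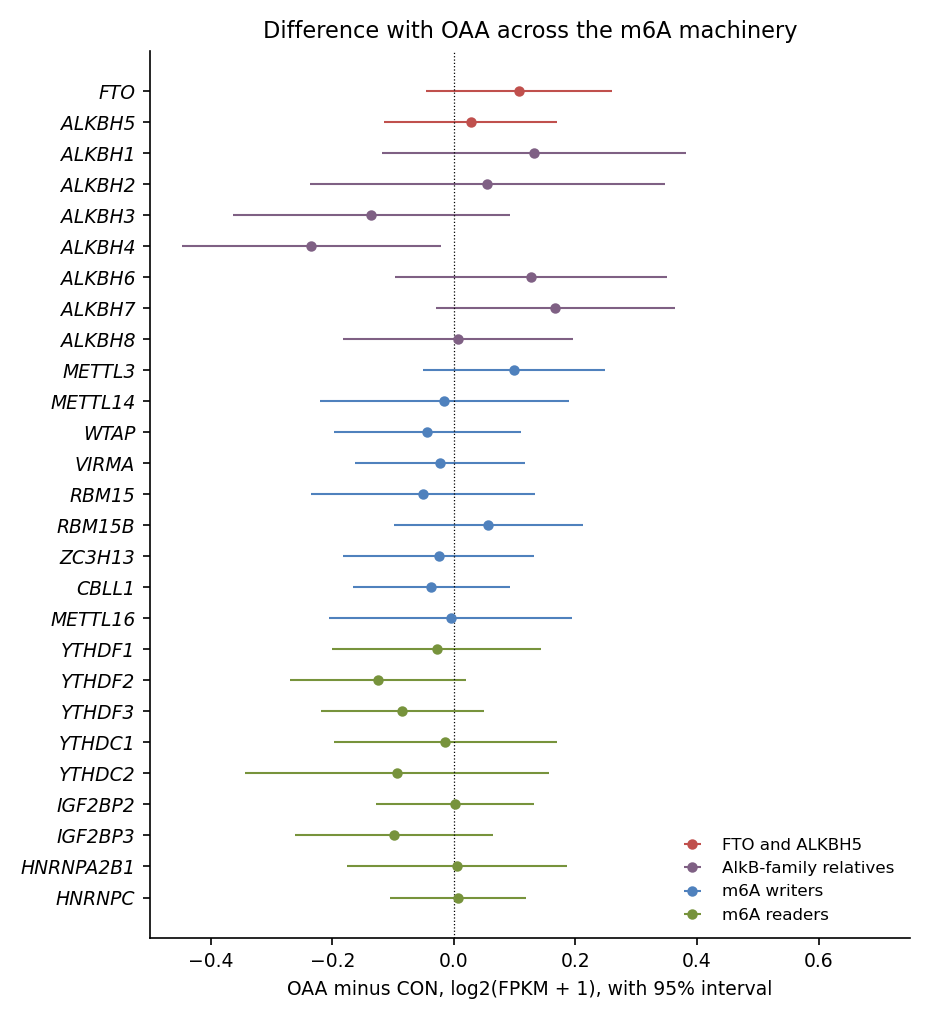
Difference of log2(FPKM + 1), OAA minus CON, for FTO, ALKBH5, 7 AlkB-family relatives, 9 m6A writers and 9 m6A readers, with limma's unadjusted 95% intervals (bars). FTO lies at 0.11 and ALKBH5 at 0.03, and among the genes drawn only the interval of ALKBH4, at -0.23, leaves out 0.

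Writers and readers of m6A, the counterparts of the demethylases, were likewise uncalled. Over all genes tested the median difference was itself below 0, at -0.01. The share of all genes below 0 was not counted, so the counts below 0 are given as a description alone. Of 9 writer genes tested, 0 were called and 7 lay below 0 (median -0.02). METTL3, the catalytic subunit, averaged 7.90 ± 0.196 FPKM in OAA cells and 7.31 ± 0.241 in CON cells (SD, n = 3 each; log2 0.10, unadjusted p = 0.174 by limma, adjusted p = 1.00). The complex members RBM15B, CBLL1 and WTAP differed by 0.06, -0.04 and -0.04. Of 9 reader genes tested, 0 were called and 6 lay below 0 (median -0.03), while IGF2BP1 was listed at 0. YTHDF2, a reader that hastens mRNA decay, averaged 27.2 ± 0.887 FPKM in OAA cells and 29.8 ± 2.11 in CON cells (SD, n = 3 each; log2 -0.12, unadjusted p = 0.0836 by limma). Among the other readers YTHDF3, IGF2BP3 and YTHDC2 differed by -0.08, -0.10 and -0.09. PCIF1, which writes the cap-adjacent m6Am that FTO removes, averaged 7.22 ± 0.470 FPKM in OAA cells and 6.62 ± 0.114 in CON cells (SD, n = 3 each; log2 0.11, adjusted p = 1.00 by limma). Of 31 writer peaks, 16 were called higher and 9 lower in ratio in OAA, and 15 and 7 in CON. Of 22 reader peaks these counts were 7 and 10 in OAA, and 6 and 10 in CON. Over all peaks 34.1% were called higher and 34.4% lower in OAA, and 33.9% and 34.2% in CON. None of the peaks of relatives, writers or readers was called for a change of the ratio.

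Of 9 genes for enzymes that make or use 2-oxoglutarate, the cosubstrate of both demethylases, limma called 0 (median -0.04, 4 above 0). IDH3A, OGDH and GLUD1, enzymes of the citric acid cycle and of glutamate breakdown, differed by -0.12, 0.10 and -0.05 (log2, OAA minus CON). Of 9 peaks on these enzymes, 1 was called higher and 4 lower in ratio in OAA, and 1 and 5 in CON (all peaks: 34.1% and 34.4% in OAA, 33.9% and 34.2% in CON). Of 9 mRNAs reported elsewhere as demethylase targets and tested here, 0 were called and 7 lay below 0. Their median was -0.04, against -0.01 over all genes, and no row carried the symbol CCNA2. MYC averaged 149 ± 10.1 FPKM in OAA cells and 161 ± 1.69 in CON cells (SD, n = 3 each; log2 -0.11, unadjusted p = 0.0667, adjusted p = 1.00 by limma). RUNX1T1, a regulator of fat cell formation whose splicing is known to respond to FTO in mouse cells, differed by -0.19, and the autophagy gene ATG5 and the kinase CDK2 by -0.06 and -0.05. The stop codon peak of RUNX1T1 had a ratio of 3.02 in OAA and 3.12 in CON, both called higher. Of 17 peaks on the target mRNAs, 6 were called higher and 4 lower in OAA, and 8 and 3 in CON, against the same shares of all peaks.

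Genes beside FTO on chromosome 6 were read as its neighbours, and none was called. RPGRIP1L, a ciliary gene that in human starts beside FTO on the opposite strand, averaged 4.22 ± 1.11 FPKM in OAA cells and 4.74 ± 0.159 in CON cells (SD, n = 3 each; log2 -0.16). IRX3 and IRX5, homeobox genes contacted by FTO's introns in human and mouse, differed by 0.09 and -0.12. Of these 3 genes limma called 0. ALKBH4 was the one gene of all these lists with an unadjusted p under 0.05. All 3 coding peaks of RPGRIP1L were called lower in ratio (-1.10, -1.11 and -0.71 in OAA, -1.23, -1.22 and -1.19 in CON), as were 34.4% of all peaks in OAA and 34.2% in CON. The stop codon peak of IRX5 had a ratio of 1.99 in OAA and 2.02 in CON, and the coding peak of IRX3 had 1.51 in OAA and 1.79 in CON. Both peaks were called higher in each treatment, as were 34.1% of all peaks in OAA and 33.9% in CON. The start codon peak of IRX5 was not called, at 0.39 in OAA and 0.66 in CON (adjusted p = 0.365 and 0.132 by edgeR). Of the 6 peaks on these genes, 2 were thus called higher and 3 lower in each treatment.

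Across the 6 libraries with FPKM, the genes whose log2(FPKM + 1) values ran most like those of FTO were ADNP (Pearson r = 0.994 over 6 libraries), OTUD5 (0.977) and DCTN4 (0.973). Those most like ALKBH5 were TNFRSF21 (r = 0.996), CDPF1 (0.980) and NDUFA4 (0.972). Each set is the top 3 of 10213 genes with a symbol, picked for its correlation over 6 libraries that are common to all genes. FTO and ALKBH5 themselves correlated at r = 0.590 over these libraries, given as a description.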

How the data were processed

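Raw read counts per merged peak, log2 ratios, p-values and their -log10 values were deposited by the authors, per the file headers, and FPKM per gene were deposited in a second table. Bowtie2 and HISAT2 are named in the submitters' processing notes. What each did, their versions, the peak caller and the build were not given in the sources used here. All library columns matched a sample (0 unmatched). Peaks listed under several genes were used once. Starts were taken as 0-based, since 717 equalled the gene start minus 1 and 8 the gene start.

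Counts were compared per peak with edgeR 4.0.16 (quasi-likelihood, TMM, filterByExpr) in R 4.3.3, and log2(FPKM + 1) with limma 3.58.1 (trend) where 3 or more libraries reached 1 FPKM, with Benjamini-Hochberg adjustment over all features and a threshold of 0.05. Ratio tests used all 12 libraries. TMM factors place the typical peak near 0. The tests were tried on simulated data. Members, gene lists and comparisons were chosen with earlier results of these data known. The up to 4 list genes named are those with the smallest p in the FPKM comparison (1 of them is not reported here), and the 3 most alike genes those with the highest Pearson r. Alternatives were DESeq2 1.42.0, library size alone, no filter, a pseudocount of 0.1, quantile normalisation, a replicate block and leaving out each library. The protocol divides each RNA between a pair of libraries, but deviations of same-numbered libraries correlated at only -0.01 to 0.06.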

Additional observations from a re-analysis of the deposited data

Results flagged for a closer look

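The wide coding peak of FTO was the one member peak in which every OAA library lay on opposite sides of the CON mean in the 2 kinds of library: below it in the libraries labelled input and above it in those labelled IP. The same pattern was found in 2.73% of 24145 peaks. The difference between these differences is the change of the peak ratio, -0.42 on the log2 scale, and edgeR's test of it did not pass (adjusted p = 0.999).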

How the results depend on the processing

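Of 234 recomputed member values in 18 comparisons, 226 kept their direction and their side of the threshold. For differences between OAA and CON, staying uncalled was nearly fixed in advance, as their main adjusted p-values were 0.94 or higher. The 226 include the narrow FTO peak in labelled input libraries, which moved from 0.58 to 0.0081 without OAA labelled input replicate 2. Library size alone took the FTO ratio in OAA below the threshold (0.19). The other 7 changed sign, all uncalled ALKBH5 differences with 1 library left out: the FPKM difference ranged from -0.0078 to 0.081, the labelled-IP difference from -0.17 to 0.062 (stop codon peak) and from -0.028 to 0.090 (start codon peak), and the change of the start codon ratio from -0.027 to 0.16. Over all features, dropping the filter gave 1 called gene by FPKM. Without OAA labelled IP replicate 3, limma still called 0 genes by FPKM. However, 1763 of 10706 genes then had an unadjusted p under 0.05, against 356 of 10763 with all libraries. The limma adjusted p of FTO was 0.468 there. Among the peaks labelled input DESeq2 called 2, and leaving out a library 0 to 1. Among those labelled IP, library size alone called 0, no filter 4, and leaving out a library 0 to 50 (the 50 without OAA labelled IP replicate 3). For the change of the ratio DESeq2 called 1, and leaving out a library 0 to 1. With the replicate number or pair as a replicate block, 1 peak labelled input, 4 labelled IP and 1 change of ratio were called, and no member's call changed. Per-peak deviations from the group mean correlated at -0.059 to -0.0013 between same-numbered OAA and CON libraries. The cause of these moves was not tested. The narrow FTO peak was too low in reads to be kept in the tests of ratios and of the libraries labelled IP.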
